A study of Mus musculus with 9 samples.

Results

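Levels of 10 interferon-induced genes were compared in neonatal rat ventricular cardiomyocytes (NRVMs) overexpressing LacZ, Nrf1 or Nrf2. The genes were *Ifit1*, *Ifit2* and *Ifit3*, the guanylate-binding proteins *Gbp2* and *Gbp5*, the immunity-related GTPases *Irgm*, *Igtp* and *Ifi47*, and *Ifi44* and *Rsad2*. They were chosen by symbol, with earlier results of these data known. Each was found once in every deposited table, among 14443 symbols listed once in all 3 tables. NRVMs are primary cells of newborn Sprague Dawley rats, although the organism field of the sample labels names the mouse. All cells were cultured for 48 h before infection with adenovirus at a multiplicity of infection of 50, and per the study's methods were collected after infection for the same length of time. The groups differed in the coding region carried by the virus, which was bacterial lacZ (the control), mouse Nrf1 or mouse Nrf2, placed in a CMV vector that also encoded a red fluorescent protein. Every group was therefore infected, and uninfected cells were not analysed here. Each group had 3 libraries, and nothing in the labels says whether these were separate cultures, so the p-values measure only the spread between these libraries.

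Type I interferons are secreted by many cell types that sense viral nucleic acid, and interferon gamma mainly by activated T and NK cells. Type I interferon acts through receptors and JAK kinases on genes that carry interferon-stimulated response elements, and interferon gamma acts mainly on genes that carry gamma-activated sites. IFIT proteins bind RNA and restrict translation of viral RNA that lacks the host cap methylation. Guanylate-binding proteins and immunity-related GTPases assemble on the vacuoles and membranes of intracellular pathogens and are classical targets of interferon gamma. *Rsad2* encodes viperin, a radical SAM enzyme that makes a chain-terminating nucleotide.

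For each gene the deposited tables hold a mean of normalized counts per group. The reads of each library were solved from these means, and levels are given as RPM, which is reads per 1000000 reads of the 14434 genes recovered in all 9 libraries. RPM values are not corrected for gene length, so levels were compared between groups and not between genes. The libraries held 7757715 to 11738826 recovered reads. Libraries are listed from the most to the fewest reads, since the values do not show which labelled replicate each one was. *Nfe2l2*, which encodes Nrf2, lay at 374 to 380 RPM in LacZ, 293 to 299 RPM in Nrf1 and 6928 to 8099 RPM in Nrf2 libraries. *Nfe2l1*, which encodes Nrf1, was not analysed here, so the overexpression of Nrf1 was not checked.

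All 10 genes fell in Nrf1 samples, to between 6.92% (*Rsad2*) and 17.1% (*Gbp2*) of the LacZ mean, with a median of 13.4%. All 10 also fell in Nrf2 samples, to between 22.0% (*Gbp5*) and 54.0% (*Ifi47*), with a median of 34.2%. A fall of more than 1.5-fold in the group means was met by 24.3% of all genes in the Nrf1 comparison and by 15.5% in the Nrf2 comparison. With limma, the share of genes past 1.5-fold and an adjusted p of 0.05 was 16.8% for Nrf1 and 9.61% for Nrf2, and all 10 genes passed in both. Their limma adjusted p ran from 9.25e-14 to 5.4e-09 for Nrf1 and from 1.97e-11 to 1.53e-05 for Nrf2. For every one of the 10 genes, each Nrf1 and each Nrf2 library lay below each LacZ library, which held for 34.4% and 33.2% of all genes respectively. Summed over the 10 genes, the level was 938 ± 109 RPM in LacZ, 112 ± 2.02 in Nrf1 and 305 ± 19.4 in Nrf2 samples (mean ± SD, n = 3 libraries). Because the cells were sequenced in bulk, fewer cells of a type and less RNA per cell cannot be told apart.

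**Figure D1:**
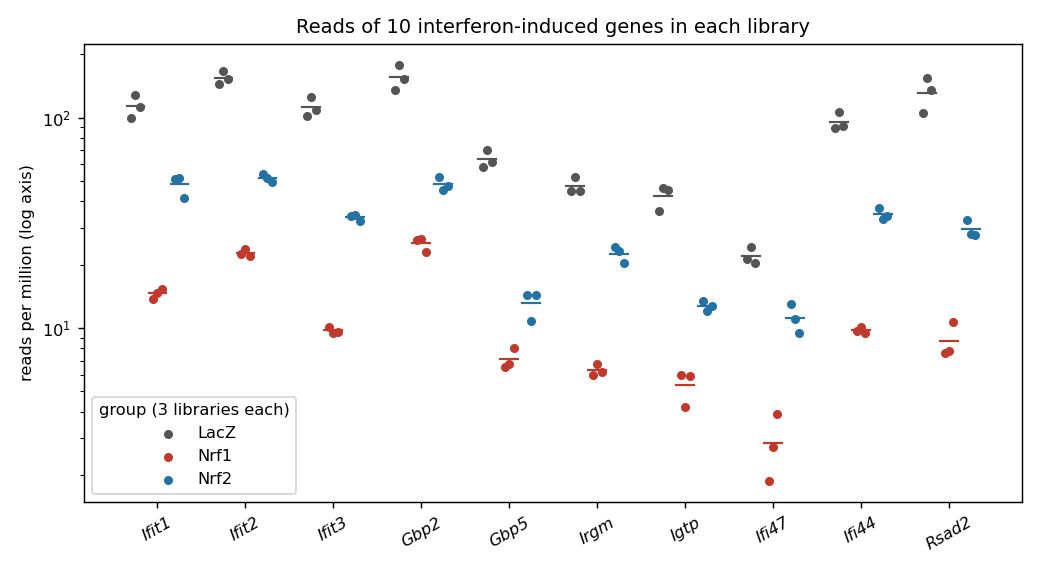
RPM (log axis) of each of the 10 genes in the 3 libraries of the LacZ, Nrf1 and Nrf2 groups, with 1 point per library and a bar at the group mean. For every gene the groups are apart, with LacZ highest, Nrf2 between and Nrf1 lowest.

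*Ifit1*, whose product recognises incompletely capped RNA, was read at 99.3, 128 and 112 RPM in LacZ, 13.8, 14.6 and 15.4 RPM in Nrf1, and 51.4, 51.7 and 41.4 RPM in Nrf2 libraries. The groups did not overlap, and the fitted log2 change was -2.88 ± 0.12 (limma, ± SE) for Nrf1 and -1.14 ± 0.091 for Nrf2. *Ifit2*, a family member linked to antiviral defence and apoptosis, was read at 145, 166 and 153 RPM in LacZ, 22.5, 23.8 and 21.9 RPM in Nrf1, and 53.8, 51.5 and 49.3 RPM in Nrf2 libraries. It varied least of the 10 genes in LacZ, with a coefficient of variation of 7.0%, and its log2 change was -2.69 ± 0.075 for Nrf1 and -1.49 ± 0.058 for Nrf2 (limma, ± SE). *Ifit3*, whose human counterpart binds human IFIT1 and stabilises it, was read at 101, 125 and 109 RPM in LacZ, 10.1, 9.48 and 9.60 RPM in Nrf1, and 34.0, 34.6 and 32.2 RPM in Nrf2 libraries. *Ifit3* had the largest change of the IFIT genes in both comparisons, -3.44 ± 0.12 for Nrf1 and -1.64 ± 0.076 for Nrf2 (limma, ± SE).

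*Gbp2*, a large GTPase that coats pathogen vacuoles, was read at 135, 178 and 153 RPM in LacZ, 26.2, 26.4 and 23.1 RPM in Nrf1, and 52.5, 45.3 and 47.2 RPM in Nrf2 libraries. Its log2 change of -2.53 ± 0.11 (limma, ± SE) was the smallest of the 10 for Nrf1, while for Nrf2 it was -1.58 ± 0.088. *Gbp5*, a relative that promotes inflammasome assembly, was read at 58.3, 70.2 and 61.7 RPM in LacZ, 6.50, 6.76 and 8.06 RPM in Nrf1, and 14.3, 10.9 and 14.3 RPM in Nrf2 libraries. Its log2 changes were -3.09 ± 0.13 for Nrf1 and -2.19 ± 0.11 for Nrf2 (limma, ± SE), the latter being the largest of the 10 for Nrf2. *Gbp4*, the other guanylate-binding protein measured, also fell, with log2 ratios of the means of -2.42 and -1.39 (limma adjusted p = 4.91e-10 and 3.86e-08).

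*Irgm*, a regulator that keeps other immunity-related GTPases inactive on host membranes, was read at 45.0, 52.1 and 44.9 RPM in LacZ, 6.0, 6.76 and 6.16 RPM in Nrf1, and 24.3, 23.2 and 20.3 RPM in Nrf2 libraries. It fell to 14% of the LacZ mean in Nrf1 and to 50.7% in Nrf2 samples. *Igtp*, a further regulator of this family, was read at 36.1, 46.3 and 45.4 RPM in LacZ, 6.0, 4.24 and 5.93 RPM in Nrf1, and 13.4, 12.1 and 12.7 RPM in Nrf2 libraries. It fell further than *Irgm* under Nrf2, to 31.8% of the LacZ mean. *Ifi47*, an effector GTPase of the family, was read at 21.3, 24.3 and 20.4 RPM in LacZ, 1.87, 2.72 and 3.91 RPM in Nrf1, and 13.0, 11.04 and 9.49 RPM in Nrf2 libraries. It was the least counted gene, with 19, 27 and 33 reads in the Nrf1 libraries and a coefficient of variation of 36.2% there. Its log2 change was -2.95 ± 0.21 for Nrf1 and -0.88 ± 0.12 for Nrf2 (limma, ± SE), the latter being the smallest fall of the 10. *Irgq*, a relative outside the interferon-induced branch, did not follow these genes, with 55.7 to 60.4 RPM in LacZ, 74.3 to 80.7 RPM in Nrf1 and 51.5 to 56.0 RPM in Nrf2 libraries. *Irgc*, the other relative measured, had 11, 6 and 3 reads in all LacZ, Nrf1 and Nrf2 libraries, too few to compare.

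*Ifi44* was read at 89.2, 107 and 90.9 RPM in LacZ, 9.65, 10.1 and 9.48 RPM in Nrf1, and 37.2, 32.9 and 34.0 RPM in Nrf2 libraries. Its Nrf1 libraries were the closest together of any of the 10 genes, with a coefficient of variation of 3.23%. They held only 98, 100 and 80 reads of *Ifi44*, too few to read this rank as a trait of the gene. Its log2 change was -3.21 ± 0.12 for Nrf1 and -1.37 ± 0.075 for Nrf2 (limma, ± SE). *Rsad2* was read at 105, 154 and 136 RPM in LacZ, 7.58, 7.77 and 10.7 RPM in Nrf1, and 32.7, 27.9 and 27.7 RPM in Nrf2 libraries. It showed the widest spread of the 10 genes in LacZ, 19.0%, and the largest change with Nrf1, -3.86 ± 0.21 on the log2 scale (limma, ± SE), against -2.05 ± 0.13 with Nrf2. *Cmpk2*, a mitochondrial nucleotide kinase that neighbours *Rsad2* in the genome and acts with viperin, fell likewise, from 40.6 to 49.3 RPM in LacZ to 2.76 to 3.93 RPM in Nrf1 and 10.05 to 12.1 RPM in Nrf2 libraries.

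Nrf2 and Nrf1 samples were next compared directly, since both groups had been set against the same LacZ libraries. Every one of the 10 genes had a higher level with Nrf2 than with Nrf1, by 1.86-fold (*Gbp5*) to 3.97-fold (*Ifi47*) in the group means, with a median of 3.37-fold. An excess of more than 1.5-fold was met by 20.1% of all genes, and by 10.9% with limma as well. All 10 genes passed, with limma adjusted p from 5.34e-12 to 2.65e-05, and no Nrf1 library reached the level of any Nrf2 library, which held for 26.8% of genes. The GBP genes were the least separated. The log2 difference was 0.94 for *Gbp2* (limma, 95% interval 0.78 to 1.10) and 0.90 for *Gbp5* (0.59 to 1.198), whereas it was 1.85 for *Irgm* (1.58 to 2.11), 1.84 for *Ifi44* (1.63 to 2.05) and 1.79 for *Ifit3* (1.59 to 1.99). The IFIT genes were not alike, since *Ifit2* differed by 1.19 (1.04 to 1.33) and *Ifit1* by 1.73 (1.51 to 1.95). The immunity-related GTPases were not alike either, as *Igtp* differed by 1.26 (0.96 to 1.57). The intervals of *Ifit2* and *Igtp* overlapped those of *Gbp2* and *Gbp5*, so the GBP genes were not set apart as a family.

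**Figure D2:**
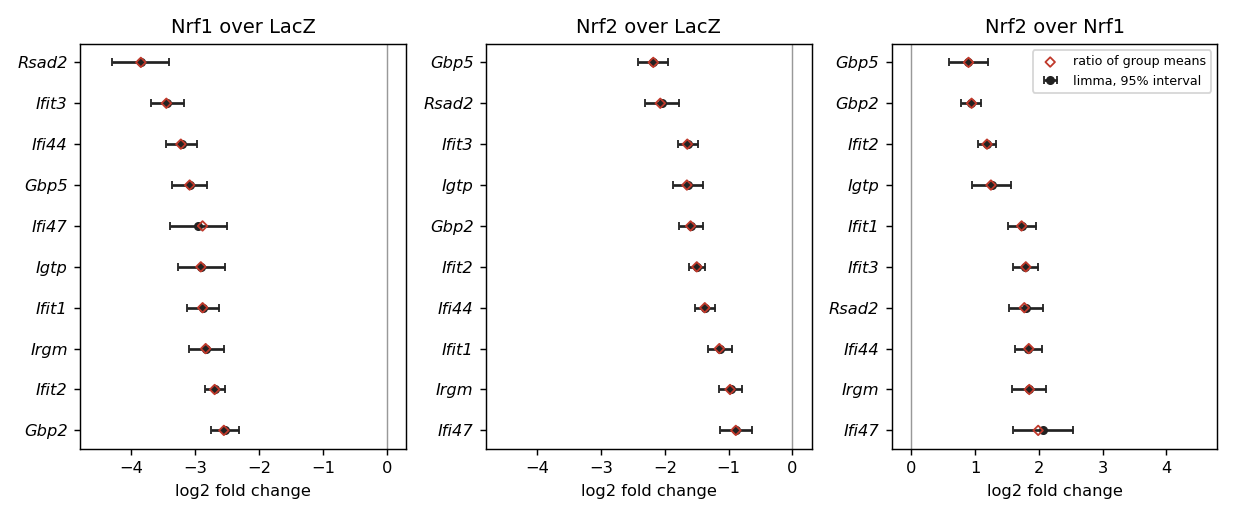
Log2 fold change of each gene in the 3 comparisons, as the limma estimate with its 95% interval (filled points and bars) and as the ratio of the deposited group means (open diamonds), with genes in order of change. No interval reaches 0, and *Gbp5* and *Gbp2* have the smallest differences between Nrf2 and Nrf1.

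The order of the genes differed between the comparisons, and most neighbours in it were closer than their combined SE. For Nrf1 against LacZ the order from the largest fall was *Rsad2*, *Ifit3*, *Ifi44*, *Gbp5*, *Igtp*, *Ifi47*, *Ifit1*, *Irgm*, *Ifit2* and *Gbp2*, and no gap between neighbours exceeded 1.63 times its combined SE. For Nrf2 it was *Gbp5*, *Rsad2*, *Igtp*, *Ifit3*, *Gbp2*, *Ifit2*, *Ifi44*, *Ifit1*, *Irgm* and *Ifi47*, and the widest gap, between *Rsad2* and *Igtp*, was 2.47 times its combined SE. In the direct comparison the widest gap, 2.68 times its combined SE, separated *Gbp5*, *Gbp2*, *Ifit2* and *Igtp* from the other 6 genes. These gaps were described and not tested. The combined SE takes neighbouring genes as independent. They were read in the same libraries and varied together in LacZ, so it may not be the error of the gap.

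**Figure D3:**
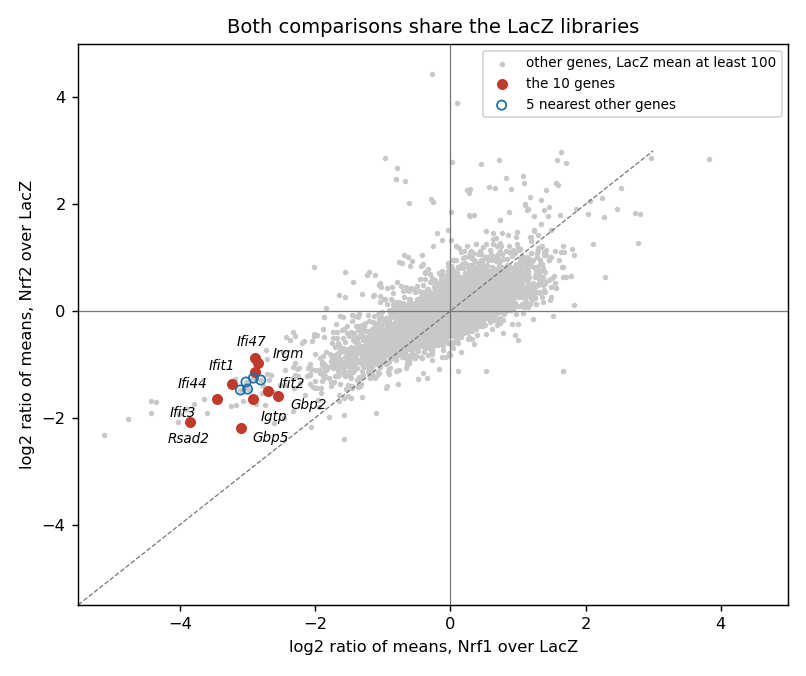
Log2 ratio of the group means for Nrf1 over LacZ (horizontal) and Nrf2 over LacZ (vertical), 1 point per gene with a LacZ mean of at least 100, the 10 genes filled in red and the 5 genes nearest to their median pattern ringed in blue. The 2 axes share the LacZ libraries, and the dashed line marks equal ratios; all 10 genes lie above it, being lower in Nrf1 than in Nrf2 samples.

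The other genes of the interferon pathway were counted over lists that covered 80 measured genes. Of all genes, 24.3% were lower by more than 1.5-fold with Nrf1 and 15.5% with Nrf2. With Nrf1, 60 of the 80 were lower by more than 1.5-fold and 0 were higher, and their median log2 ratio was -2.10, against -0.04 over all genes. With Nrf2, 56 were lower and 1 was higher, with a median of -1.08 against -0.01 over all genes. In limma, 51 and 48 of the 70 genes tested fell. Between Nrf2 and Nrf1, 46 of the 80 were higher in Nrf2 and 4 were lower, and in limma 36 of 67 were higher and 0 lower.

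Among type I interferon antiviral effectors, 30 of 31 measured genes were lower with Nrf1 and 29 of 31 with Nrf2, and in limma 28 of 29 fell in both comparisons. The dynamin-like GTPase *Mx2* had log2 ratios of -5.12 and -2.31, and the RNA-activated synthetase *Oas1a* -4.77 and -2.03. Of the factors that transmit the signal, *Irf7*, which amplifies type I interferon production, lay at 387, 508 and 425 RPM in LacZ, 22.4, 27.6 and 27.1 RPM in Nrf1, and 108, 95.2 and 91.8 RPM in Nrf2 libraries, with no overlap between groups. *Irf9* and *Stat2* had log2 ratios of -2.33 and -2.24 with Nrf1 and of -1.04 and -1.07 with Nrf2 (limma adjusted p at most 1.25e-08). *Irf8* and *Irf5* also fell, with log2 ratios of -1.75 and -1.07 with Nrf1 and of -1.03 and -1.09 with Nrf2. Some genes of these families did not follow, as *Irf3*, *Irf2* and *Stat3* had log2 ratios of 0.30, -0.24 and 0.04 with Nrf1. With Nrf2 the log2 ratios of *Irf3*, *Irf2* and *Stat3* were 0.02, -0.09 and 0.12. Cytosolic nucleic acid sensors were lower in 4 of 6 cases in both comparisons, and the RNA sensors *Dhx58*, *Ddx58* and *Ifih1* had log2 ratios of -3.64, -3.10 and -2.998 with Nrf1, and of -1.65, -1.48 and -1.46 with Nrf2.

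Few of the receptors and kinases at the head of the pathway passed the cutoff. Of 8 measured, 1 was lower past 1.5-fold with Nrf1, the interferon gamma receptor chain *Ifngr1* with a log2 ratio of -0.71, and 0 were lower with Nrf2. The shares over all genes were 24.3% with Nrf1 and 15.5% with Nrf2. *Il10rb*, a chain of the type III receptor, was the 1 gene higher past 1.5-fold with Nrf2, with log2 ratios of 0.53 with Nrf1 and 0.61 with Nrf2. The type I receptor chain *Ifnar1* had log2 ratios of -0.43 and -0.26. Among interferon gamma targets, 13 of 14 were lower in the group means with Nrf1 and 12 of 14 with Nrf2, although *Ido1*, *Nos2*, *Ciita* and *Cxcl9* had at most 17 reads in any group. The 10 genes with enough reads for limma gave 9 and 8 that fell, including the chemokine *Cxcl10* (log2 ratios -2.78 and -1.41) and the immunoproteasome subunit *Psmb8* (-2.56 and -1.60). The negative regulators were lower in 3 of 7 and 1 of 7 cases (2 and 1 in limma), beside the same shares of all genes, 24.3% and 15.5%. The 1 gene lower with Nrf2 was *Usp18*, a protease that removes ISG15 and dampens type I interferon signalling, with log2 ratios of -4.43 and -1.69. The interferon ligands were barely read. *Ifnb1* had 5 reads in all LacZ, 0 in all Nrf1 and 4 in all Nrf2 libraries, and *Ifng* had 1, 1 and 0, so that a difference was not detectable at this depth.

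**Figure D4:**
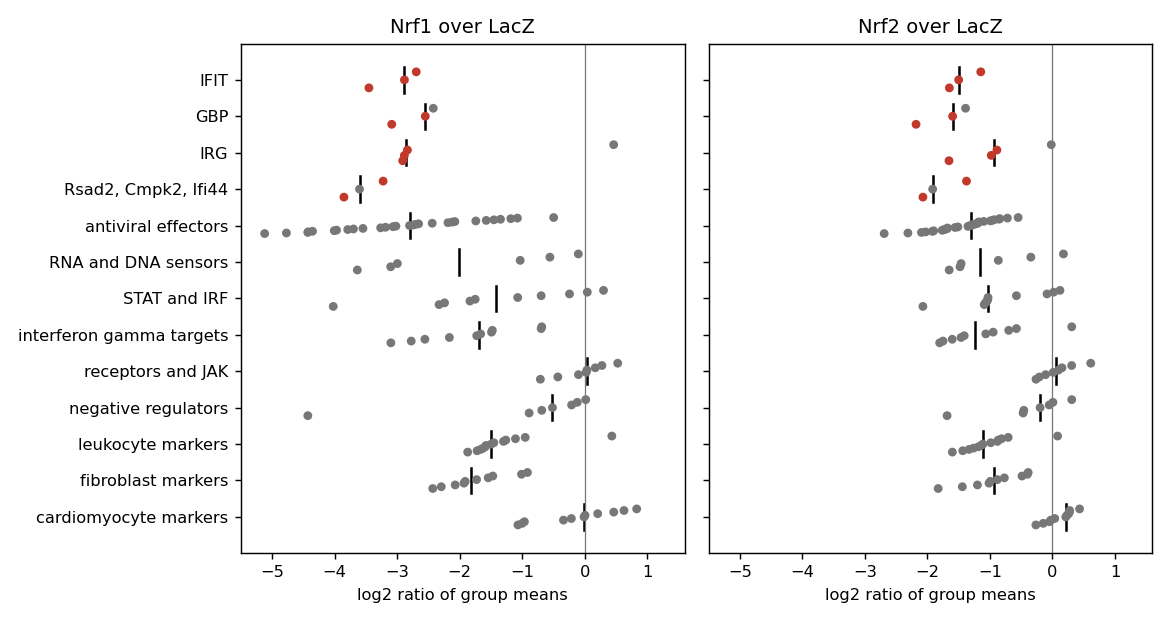
Log2 ratio of the group means for genes whose mean reached 10 in 1 group or both, Nrf1 over LacZ (left) and Nrf2 over LacZ (right), the 10 genes in red, other genes in grey, and a bar at the median of each list. The lists of interferon ligands, endothelial markers, reference genes and antioxidant targets are not drawn. A gene without reads in a group has no point for that comparison. Receptors and JAK kinases lie near 0, whereas the IFIT, GBP and antiviral effector genes lie to the left, as do leukocyte and fibroblast markers to a lesser extent.

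Markers of other cell types moved with the same comparisons. Cardiomyocyte markers were abundant in every group, 11 measured genes summing to 14274 to 16072 RPM in LacZ, 14690 to 14857 in Nrf1 and 15837 to 16232 in Nrf2 libraries. The sums covered opposite changes with Nrf1, since 3 of the 11 were lower past 1.5-fold (*Myh7*, *Myl2* and *Tnni3*, with log2 ratios of -1.07, -1.0 and -0.97) and 2 were higher (*Actc1* and *Ryr2*, 0.63 and 0.83), while 0 passed in either direction with Nrf2. Of 14 leukocyte markers, 13 were lower past 1.5-fold with Nrf1 and 13 with Nrf2 (12 of 13 tested in limma for each). The 13 included *Cd163*, which had only 21, 7 and 8 reads in all LacZ, Nrf1 and Nrf2 libraries. The exception was *Csf1r*, the receptor for macrophage colony-stimulating factor, with log2 ratios of 0.43 and 0.08. The leukocyte markers summed to 251 to 371 RPM in LacZ, 133 to 140 in Nrf1 and 134 to 145 in Nrf2 libraries. Between Nrf2 and Nrf1, 5 of the 14 leukocyte markers were higher in Nrf2 past 1.5-fold and 0 were lower (4 and 0 of 12 tested in limma), among them the macrophage marker *Cd68* with a log2 ratio of 0.88. *Lyz2* and *Csf1r* had log2 ratios of -0.31 and -0.36 there. Fibroblast markers were lower in 10 of 10 cases with Nrf1 and 7 of 10 with Nrf2, and summed to 13280 to 14169, 3247 to 3491 and 6569 to 7112 RPM. Against 24.3% and 15.5% of all genes, endothelial markers were lower in 5 of 8 and 4 of 8 cases. Those included *Cldn5*, which had only 5, 1 and 3 reads in all LacZ, Nrf1 and Nrf2 libraries. With Nrf2, 1 endothelial marker was higher past 1.5-fold, *Egfl7*, with log2 ratios of 0.35 with Nrf1 and 0.81 with Nrf2. None of the leukocyte or fibroblast markers was at 0 in any group. The part of these cells in the fall of the interferon-induced genes was not tested. Of 10 antioxidant targets of Nrf1 and Nrf2, 6 were higher with Nrf1 and 10 with Nrf2, the sulfiredoxin gene *Srxn1* having log2 ratios of 1.71 and 2.77. Of 10 reference genes, 0 were lower in either comparison, and 1 was higher with Nrf1 and 2 with Nrf2. The share of all genes higher than in LacZ past 1.5-fold is not given here. Counts of genes higher than in LacZ, in any list, were therefore not set against a background.

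Within groups, the 10 genes varied together in LacZ. The LacZ library with 8095752 reads had the highest level for 10 of 10 genes, summing to 1052 RPM against 835 and 926 RPM in the other LacZ libraries. Of 8485 genes at 10 RPM or more, 40.1% were highest in that library. It was also highest for 44 of 53 other interferon pathway genes, 13 of 14 leukocyte markers and 10 of 10 fibroblast markers, but for 2 of 11 cardiomyocyte markers. Without this library the 10 genes still fell by more than 1.5-fold in both comparisons, with log2 ratios from -3.73 to -2.45 for Nrf1 and from -2.11 to -0.82 for Nrf2, and no value moved by more than 0.12. Without it, 61 of the other 80 pathway genes and 12 leukocyte markers were lower with Nrf1, and 55 and 12 with Nrf2. In Nrf2, the library with 11738826 reads was highest for 8 of 10 genes, and for 32.5% of the 8485 genes. In Nrf1 the highest value was spread over all 3 libraries.

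**Figure D5:**
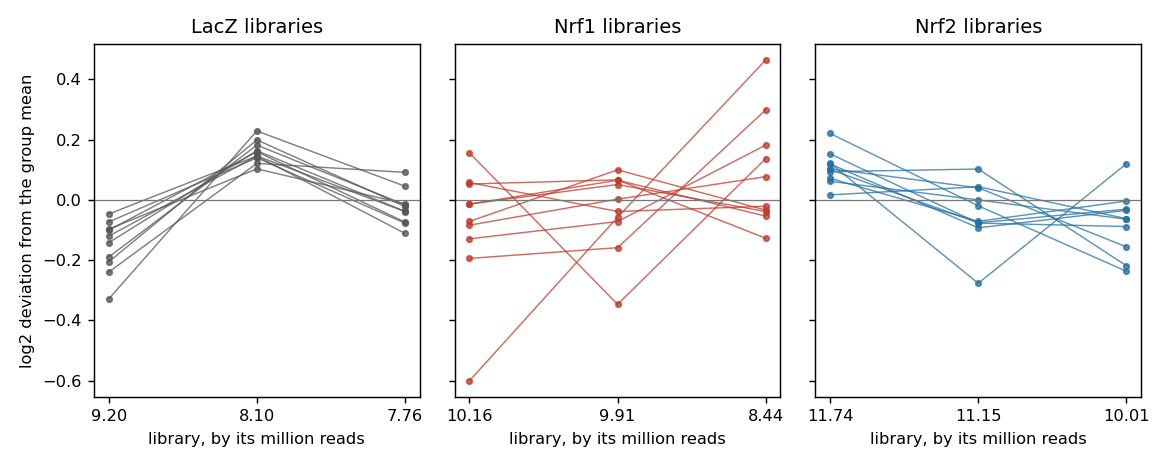
Log2 deviation of each library from its group mean for the 10 genes, 1 line per gene, in LacZ (left), Nrf1 (middle) and Nrf2 (right), the libraries being placed by their depth and having no other order. All 10 lines peak at the LacZ library with 8095752 reads, and lines of the Nrf1 group cross.

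The genes most like these 10 were sought among 8289 others with a LacZ mean of at least 100, by Euclidean distance over the 3 log2 ratios to the medians of the 10 genes. The nearest were *Ddx58* (distance 0.25), *Ifih1* (0.26), *Parp9* (0.26), *Tnnt1* (0.31) and *Parp14* (0.37). *Ddx58* and *Ifih1* encode the RNA sensors RIG-I and MDA5, and *Parp9* and *Parp14* encode macrodomain proteins of the interferon response. *Tnnt1*, the slow skeletal troponin T gene, was in none of the gene lists. It was read at 15.1, 11.1 and 14.4 RPM in LacZ, 1.38, 2.12 and 1.66 RPM in Nrf1, and 5.45, 6.10 and 4.50 RPM in Nrf2 libraries. Unlike the 10 genes, it was lowest in the LacZ library in which they were highest. Since all 3 ratios are drawn from the same 9 libraries, the distance describes a shared pattern over 3 groups only.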

How the data were processed

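Stranded mRNA libraries of infected NRVMs were sequenced as single-end reads. Per the study's methods and processing notes, reads were checked with FastQC 0.11.4, aligned to rat Rnor_6.0 with HISAT2 2.0.4, stripped of duplicates with SAMtools 0.1.18 and counted per gene with featureCounts 1.6.0. Duplicate removal in single-end data can lower the counts of highly expressed genes. How reads shared by related IFIT, GBP or IRG genes were assigned is not given in the sources used here, so values of single paralogs are uncertain to that extent. The authors deposited 3 tables, 1 per pair of groups, whose signal is the mean over a group of read counts divided by size factors set within that pair. The tables also hold the authors' fold changes and p-values, which were not used. The authors name edgeR 3.20.5 for their comparisons, while the columns have the layout of DESeq. The number of columns of single samples left unused was 0.

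The main values were ratios of the deposited means within a table, called past 1.5-fold. Each group appears in 2 tables with different scaling, so the whole reads of its 3 libraries were solved from both means. Exactly 1 solution was found for 14670 of 14679 genes in LacZ, 14579 of 14579 in Nrf1 and 14746 of 14746 in Nrf2, and the 9 genes with several solutions were left out. The recovery and the limma step were also run on simulated data, with results not given here. The counts simulated for limma held no variation shared between genes within a library. No test had been planned for group means. Once reads were recovered, limma 3.58.1 in R 4.3.3 (voom with the authors' size factors, genes above 1 RPM in at least 3 libraries, Benjamini-Hochberg over all genes tested) was added after the data had been seen. The Nrf1 and Nrf2 comparisons share the LacZ libraries.

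Named genes were the 10 members, at most 3 genes per list with the largest Nrf1 to LacZ ratio and a mean of at least 10, and the 5 genes nearest in pattern. *Csf1r*, *Lyz2*, *Cd68*, *Actc1*, *Ryr2*, *Ifnb1*, *Ifng*, *Irgc*, *Irf2*, *Irf3*, *Stat3*, *Ido1*, *Nos2*, *Ciita* and *Cxcl9* were named after their values were seen. The same holds for *Irf5*, *Irf8*, *Egfl7*, *Cldn5* and *Cd163*. The members, lists and rules were chosen with earlier results of these data known. No rat sequence was used, so promoters were not searched and no sequences are shown. Alternatives were a 2-fold cutoff, a mean of at least 10 or 100, re-centring, a pseudocount of 1, the sum of the other tables, other scalings and filters, and leaving out each library.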

Additional observations from a re-analysis of the deposited data

How the results depend on the processing

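All 10 genes kept their direction and stayed past 1.5-fold and an adjusted p of 0.05 in limma in each of 12 settings per comparison, with an adjusted p of at most 2.99e-07 for Nrf1, 0.000148 for Nrf2 and 0.000522 for Nrf2 against Nrf1. Leaving out each library in turn gave log2 ratios from -4.03 to -2.45 for Nrf1, -2.25 to -0.78 for Nrf2 and 0.83 to 2.29 for Nrf2 against Nrf1. A 2-fold cutoff kept 10, 8 and 8 of the 10, losing *Irgm* and *Ifi47* for Nrf2 and *Gbp2* and *Gbp5* between Nrf2 and Nrf1. The share of all genes past 2-fold is not given here, so these counts were not set against a background. Scaling by library totals moved all 10 log2 ratios with Nrf2 by at most 0.088, which exceeded the spread between libraries (1 SD) only for *Ifit2*, at -1.59. Of the counts over lists, 4 moved by more than 1.5-fold. With a mean of at least 100, leukocyte markers lower with Nrf1 and with Nrf2 numbered 8 each, and other interferon pathway genes higher in Nrf2 than Nrf1 numbered 29. With a 2-fold cutoff, leukocyte markers lower with Nrf2 numbered 8 and fibroblast markers 4. Each follows from fewer genes counted or a higher cutoff. No paired analysis was possible because the recovered libraries carry no replicate numbers. Depth limited *Ifi47* in Nrf1 libraries and the interferon ligands.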
